A study of Mus musculus with 24 samples.

Results

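The acetylated regions of wound-healing fibroblasts with and without Prrx1 were compared in a pair of peak lists of histone H3 acetylated at lysine 27 (H3K27ac). The members were every summit of both lists, 33465 in WT and 43058 in SG, together 76523 of the 309261 H3K27ac summits of the series. A summit with no summit of the other list within 500 bp was called WT-only or SG-only, and the rest were called shared. The cells came from dorsal skin wounds of C57BL/6 mice at day 10 after wounding and both groups carry the E6 and E7 genes of human papillomavirus, which immortalise cells. In SG cells Prrx1 had been deleted by CRISPR/Cas9 with a guide RNA, and WT cells had received the control guide SgNS. How many animals or clones stand behind each culture was not given in the sources used here. Each group had 1 library, so no test was possible between WT and SG and each difference is one between 2 lists. Intervals are 95% Wilson intervals, which cover counting error over summits and not differences between cultures.

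H3K27ac marks active promoters and enhancers, while trimethylation of lysine 4 (H3K4me3) marks promoters and spreads over wide stretches at genes that are strongly used in a cell type. Prrx1 is a paired-related homeodomain transcription factor of limb and dermal mesenchyme, and in skin wounds fibroblasts turn into contractile myofibroblasts that lay down collagen. Both lists had summits at fibroblast genes, 98 WT and 70 SG summits at 11 of 13 fibroblast markers. Markers of other cells were not free of summits, with 31 WT and 59 SG summits at 10 of 16 keratinocyte, 27 and 38 at 5 of 10 endothelial, 0 and 6 at 3 of 10 immune, and 7 and 8 at 2 of 10 muscle markers. Of these, Ptprc, Krt5, Krt14, Tie1, Myod1 and Pax7 had none in either list, and Pecam1, of endothelium, had 0 in WT and 1 in SG. Fap and Fn1, a fibroblast surface protease and fibronectin, also had no summit of either list nearest to their starts.

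The sequences around 7 summits that carry the comparison show what kinds of sites were listed for 1 genotype and not for the other. All are read on the plus strand of mm9, 100 bases to either side of the summit, and lie in introns outside annotated exons, and capitals mark the CpG dinucleotides, whose number differed between the classes. The first 3 are the strongest summits of the 3 longest stretches of WT-only summits, at chr6:4460195-4460395 in Col1a2, chr5:32440818-32441018 in Fosl2 and chr8:87262367-87262567 in the stretch over Nfix and G430095P16Rik.
Col1a2, WT-only: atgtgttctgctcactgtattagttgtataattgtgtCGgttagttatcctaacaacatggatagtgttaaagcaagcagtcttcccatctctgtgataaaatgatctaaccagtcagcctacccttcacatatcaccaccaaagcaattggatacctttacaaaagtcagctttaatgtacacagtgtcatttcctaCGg
Fosl2, WT-only: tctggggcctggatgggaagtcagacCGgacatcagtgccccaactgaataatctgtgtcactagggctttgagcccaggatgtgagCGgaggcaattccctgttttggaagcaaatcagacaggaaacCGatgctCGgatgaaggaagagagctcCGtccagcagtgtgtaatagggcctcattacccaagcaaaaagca
Nfix, WT-only: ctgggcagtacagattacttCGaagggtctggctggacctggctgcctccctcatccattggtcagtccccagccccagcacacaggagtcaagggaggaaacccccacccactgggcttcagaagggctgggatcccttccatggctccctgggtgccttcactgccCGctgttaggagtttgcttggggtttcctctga
The other 4 are the strongest summits of the 3 longest stretches of SG-only summits and of the stretch in Nek7, at chr7:121226011-121226211 in Rras2, chr6:53581371-53581571 in Creb5, chr9:9126405-9126605 in Arhgap42 and chr1:140492970-140493170 in Nek7.
Rras2, SG-only: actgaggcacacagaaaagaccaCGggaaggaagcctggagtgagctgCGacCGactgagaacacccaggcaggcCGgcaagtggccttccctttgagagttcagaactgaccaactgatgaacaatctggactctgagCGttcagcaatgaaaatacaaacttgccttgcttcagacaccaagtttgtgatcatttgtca
Creb5, SG-only: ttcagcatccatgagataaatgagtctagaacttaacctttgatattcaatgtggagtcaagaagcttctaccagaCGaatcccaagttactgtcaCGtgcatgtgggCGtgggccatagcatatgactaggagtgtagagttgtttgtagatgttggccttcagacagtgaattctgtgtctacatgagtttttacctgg
Arhgap42, SG-only: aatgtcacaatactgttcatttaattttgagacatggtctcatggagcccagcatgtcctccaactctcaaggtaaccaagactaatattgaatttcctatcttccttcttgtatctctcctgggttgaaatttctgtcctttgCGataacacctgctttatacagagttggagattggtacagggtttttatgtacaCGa
Nek7, SG-only: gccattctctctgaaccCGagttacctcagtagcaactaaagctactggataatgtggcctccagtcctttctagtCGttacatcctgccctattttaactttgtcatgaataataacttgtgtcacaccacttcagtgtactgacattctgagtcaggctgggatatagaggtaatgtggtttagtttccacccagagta
GC content was 38.8%, 52.2% and 60.2% in the WT-only windows and 50.2%, 42.8%, 39.3% and 43.3% in the SG-only windows, in the order shown. TGANTCA, the letters that AP-1 factors bind, was found once, in the Nek7 window, and TAATT, a half-site of homeodomain factors, once each in the Col1a2 and Arhgap42 windows, on either strand.

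Of the WT summits, 10794 were WT-only (32.3%, interval 31.8% to 32.8%), and of the SG summits, 20822 were SG-only (48.4%, interval 47.9% to 48.8%). The unshared summits of the 2 lists lay at different distances from the other list. Of the WT-only summits, 5400 lay 500 bp to 1 kb and 2772 lay 1 to 2 kb from an SG summit, and 1291 were more than 5 kb away (3.86% of all WT summits). Of the SG-only summits, 4431 and 3260 lay in the same 2 ranges, and 10190 were more than 5 kb from any WT summit (23.7% of all SG summits). Those beyond 5 kb are called isolated here. Most WT-only summits thus had an SG summit nearby, while nearly as many SG-only summits were isolated as not. At the 500-bp limit, 1479 WT summits (4.42%) lay 400 to 500 bp and 1535 (4.59%) lay 500 to 600 bp from the nearest SG summit, so that the limit cut through a continuous range of distances.

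**Figure D1:**
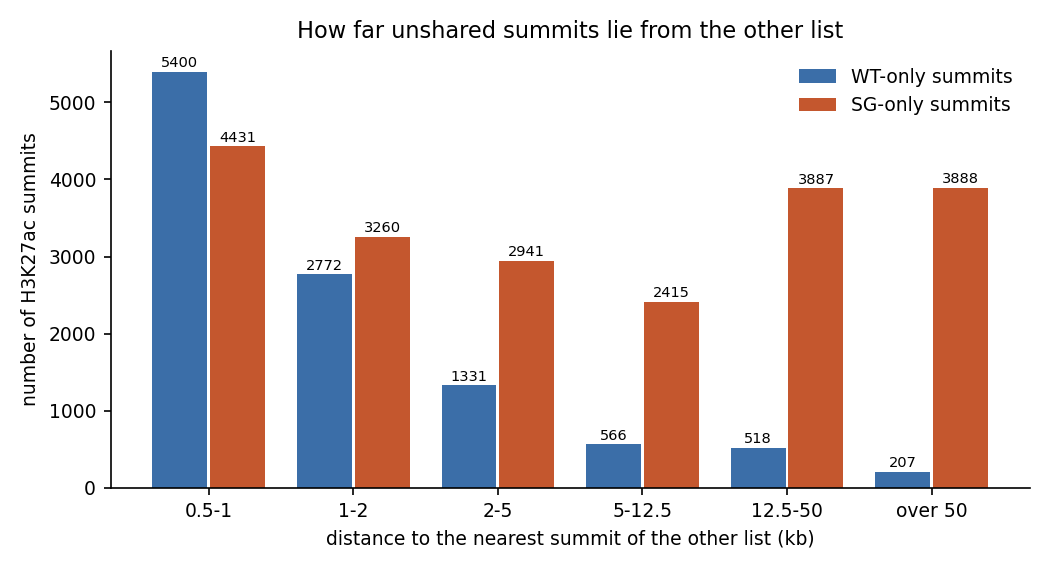
Number of WT-only and SG-only H3K27ac summits (y axis) by distance to the nearest summit of the other list (x axis, kb). WT-only summits are most numerous in the nearest bin, with 5400, and number 207 beyond 50 kb, where there are 3888 SG-only summits.

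The lists hold 1 summit per peak and no peak width, so WT peaks that had merged into 1 wide SG peak and WT peaks that were missing in SG cannot be told apart from summits. The H3K4me3 lists, which give widths, bear on this. Of the WT-only summits, 4390 (40.7%) lay inside an SG H3K4me3 region that also held an SG H3K27ac summit, against 29 of the isolated WT-only summits (2.246%). Of the SG-only summits, 2594 (12.46%) lay inside a WT H3K4me3 region with a WT H3K27ac summit. Counting such summits as shared, 19.1% of WT and 42.3% of SG summits were unshared. With this and with all summits within 2 kb of the other list set aside, 2236 WT-only summits (20.7%) and 12904 SG-only summits (62.0%) remained.

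The SG list was also the stronger of the pair. At the 22671 shared WT summits the median −log10 p was 18.2, and it was 30.0 at the nearest SG summit, which was the higher of the 2 at 19265 of them (85.0%). The WT-only summits had a median −log10 p of 11.7, the SG-only summits 11.4, the isolated WT-only 9.15 and the isolated SG-only 11.3. Unshared summits were weak in both lists. In the weakest quartile of each list 49.4% of WT and 82.9% of SG summits were unshared, and in the strongest quartile 16.0% and 8.14%. When the SG list was kept to its 33465 strongest summits, so that both were of equal length, 36.5% of WT and 38.3% of SG summits were unshared. Isolated summits still numbered 2065 in WT (6.17%) and 6213 in SG (18.6%). Library depth is unknown, and its part in these counts was not tested.

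Unshared summits lay away from promoters more often than shared ones did. Within 1 kb of a protein-coding transcription start site (TSS) lay 26.3% of WT-only (interval 25.4% to 27.1%), 13.2% of SG-only (12.7% to 13.6%) and 49.6% of shared WT summits. Seen from the sites, promoter summits were unshared at like rates in both lists, 20.14% in WT and 19.96% in SG, while distal summits were unshared at 41.0% and 61.6%. Introns held 42.3% of WT-only and 47.2% of SG-only summits, and ground between genes held 26.2% and 36.1%. The isolated summits were the most distal, with 12.2% (WT) and 8.38% (SG) at promoters.

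Measures that did not enter the definition of the classes separated them in the same order. H3K4me3 regions of the same genotype covered 41.8% of WT-only and 25.7% of SG-only summits, and WT regions covered 59.99% of the shared WT summits. A Prrx1 summit of WT wound-healing fibroblasts lay within 500 bp of 5.18% of WT-only summits (interval 4.78% to 5.61%), 2.83% of SG-only summits (2.61% to 3.06%) and 6.78% of shared WT summits (6.46% to 7.11%). Prrx1-bound WT summits were thus WT-only at 26.7%, against 32.6% of unbound ones. The intervals of these shares were 24.8% to 28.6% and 32.1% to 33.1%.

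The H3K27ac lists of WT cells from other tissues gave a further view. Of the WT-only summits, 63.7% were also found within 500 bp in the list of mouse embryonic fibroblasts (MEF) or of mammary tumour fibroblasts (MMTV-CAF), and so were 70.2% of the isolated WT-only summits. For SG-only summits the share was 54.6%, for isolated SG-only summits 53.8%, and for shared WT summits 91.0%.

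**Figure D2:**
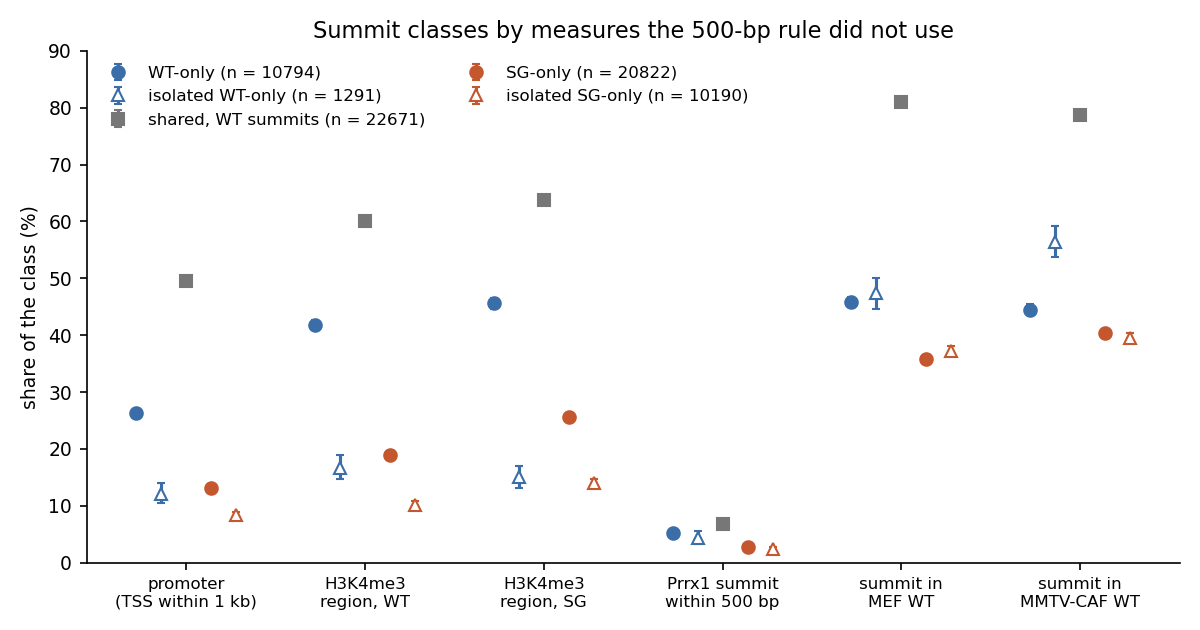
Share of each summit class (y axis, percent; points with 95% Wilson intervals) that lay at a promoter, in a wound-healing WT or SG H3K4me3 region, by a WT Prrx1 summit, or within 500 bp of a summit of the MEF WT or of the MMTV-CAF WT list. Shared summits (grey squares) lie highest on each measure, with 49.6% at promoters, and SG-only summits (red circles) lie below WT-only ones (blue circles); open triangles are isolated summits.

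Prrx1 itself (ENSMUSG00000026586.8, minus strand of chromosome 1, 165175247 to 165243841) stayed acetylated in SG cells. With 10 kb on each side the gene held 12 WT summits, 7 of them WT-only, and 12 SG summits, 8 of them SG-only. The strongest WT summit, at −log10 p of 49.1, lay 1.33 kb inside the 5′ end, and the strongest SG summit, at 49.6, lay 0.672 kb inside it, 660 bp from the first, so that each counted as unshared. The H3K4me3 region at the start was 4606 bp wide in WT and 6092 bp in SG, with folds over input of 7.20 and 8.66. A peak list does not show whether the guide cut the gene, so these values do not check the deletion.

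To find loci rather than single sites, stretches of at least 3 consecutive unshared summits of one list, no further apart than the stitching distance usual for super-enhancers and with no other summit of either list between them, were collected. Stretches of WT-only summits are called loss runs and those of SG-only summits gain runs, as names for the listing alone. There were 479 loss runs with 1763 summits, nearest to 407 genes, and 1430 gain runs with 5335 summits, nearest to 1169 genes. Loss runs were short, with a median span of 3.22 kb, and 77.0% overlapped a protein-coding gene (interval 73.1% to 80.6%). Gain runs spanned a median of 4.88 kb and 65.1% overlapped a gene (62.6% to 67.5%). With lists of equal length, where the lowest −log10 p was 5.06 in WT and 10.02 in SG, there were 645 loss and 576 gain runs, and with a −log10 p of at least 10 in both lists there were 230 and 922. What set this balance was not tested. In 218 loss runs (45.5%) and 169 gain runs (11.8%) at least 1 summit lay inside an H3K4me3 region of the other genotype that held an H3K27ac summit there.

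The longest loss run lay in Col1a2, which encodes a chain of type I collagen, the main fibre of scar and dermis. It held 19 WT-only summits over 26.9 kb of the gene body (chromosome 6, 4460295 to 4487188), with −log10 p between 5.95 and 22.3, and the nearest SG summit was 1.80 to 28.7 kb away. No SG summit lay between 3.68 kb and the end of this 36.7-kb gene. Over all summits nearest to Col1a2 there were 35 in WT, 27 of them WT-only and 20 isolated, and 10 in SG, 2 of them SG-only. The strongest summit inside the gene had a −log10 p of 33.3 in WT and 18.5 in SG, 1.23 and 1.83 kb from the start. H3K4me3, which the run did not use, covered 2368 bp of its span in WT and 306 bp in SG. The region over the start was 3446 bp wide with a fold of 5.44 in WT, and 1985 bp with a fold of 4.65 in SG. A further SG region followed it, and in the span of the WT region and the 2 SG regions H3K4me3 covered 3446 bp in WT and 3143 bp in SG, so that the start differed little in covered length. Of the 19 summits, 13 were also in the MMTV-CAF WT list and 10 in the MMTV-CAF SG list, but 3 in MEF WT, 0 in MEF SG and 2 in the MEF list labelled KI_PRRX1. Prrx1 summits of WT cells lay by 6 of the 35 WT summits of the gene, 1 of them in the run. All 19 summits stayed unshared with H3K4me3-bridged summits counted as shared, and 11 were left with a −log10 p of at least 10. Lists of equal length could not change the 19, since only SG summits are dropped there.

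The next loss runs were 8 to 10 summits long. Fosl2, an AP-1 subunit, held 10 over 14.6 kb, up to a −log10 p of 55.9. There, however, H3K4me3 was wide in both genotypes (9916 bp of the span in WT and 11260 bp in SG), and 6 of the 10 summits lay in an SG H3K4me3 region with an SG summit, which left 4. A run of 10 summits over 12.8 kb in Nfix and the neighbouring G430095P16Rik had no H3K4me3 in either genotype, and 5 of them were in the MMTV-CAF WT list. Nfix is a nuclear factor I transcription factor.

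Itgb6, a subunit of an integrin that releases active TGF-beta, held 9 summits over 11.2 kb, of which 6 were in MEF WT. Cald1, the actin-binding protein caldesmon, held 9 over 10.2 kb, 3 Prrx1 summits lay in that span, and 7 remained when H3K4me3-bridged summits were counted as shared. Banp, a DNA-binding protein, held 9 over 17.9 kb with no H3K4me3 and 0 in MEF WT. These runs thus differed in how far other fibroblasts had the same sites.

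A run in Mrpl33, of the mitochondrial ribosome, that also overlapped Rbks, a ribokinase, held 8 summits with a highest −log10 p of 78.6, and 1 Prrx1 summit. Sdc4, a heparan sulfate proteoglycan of focal adhesions, held 8 over 21.7 kb, where H3K4me3 covered 5796 bp in WT and 9367 bp in SG. Of the 8 longest loss runs, 8 remained runs with a −log10 p of at least 10, where that of Banp shrank from 9 to 3 summits. Lists of equal length drop SG summits alone, so a loss run could not shrink there and that setting does not check these runs.

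The longest gain run lay in Rras2, a Ras-family GTPase, with 17 SG-only summits over 44.6 kb (chromosome 7, 121197983 to 121242580). Its summits were weak, with a −log10 p between 5.78 and 18.1, and 8 of the 17 remained with lists of equal length. H3K4me3 covered 1626 bp of the span in SG and 0 bp in WT. Creb5, a bZIP transcription factor, held 14 over 20.6 kb of its intron (chromosome 6, 53567941 to 53588566), up to a −log10 p of 68.4, and each lay at least 43.7 kb from any WT summit. Of these, 12 remained with lists of equal length, and 1 was in the MMTV-CAF WT list. At the start of Creb5 both lists had summits, 15.3 and 11.7 in WT and 31.0 and 52.6 in SG, so the start was marked in both and the intronic stretch was listed in SG.

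Arhgap42 and Arhgap6, GTPase-activating proteins, held 14 summits over 35.9 kb and 10 over 27.9 kb, and the nearest WT summit to the Arhgap6 run was 197 kb away. Cep170, a centrosomal protein, held 13 over 19.1 kb, Pla2g4a, the cytosolic phospholipase that releases arachidonic acid, 11 over 15.4 kb, and Nek7, a kinase of the inflammasome, 11 over 31.1 kb. With lists of equal length these 7 gain runs kept 5 to 12 summits each.

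**Figure D3:**
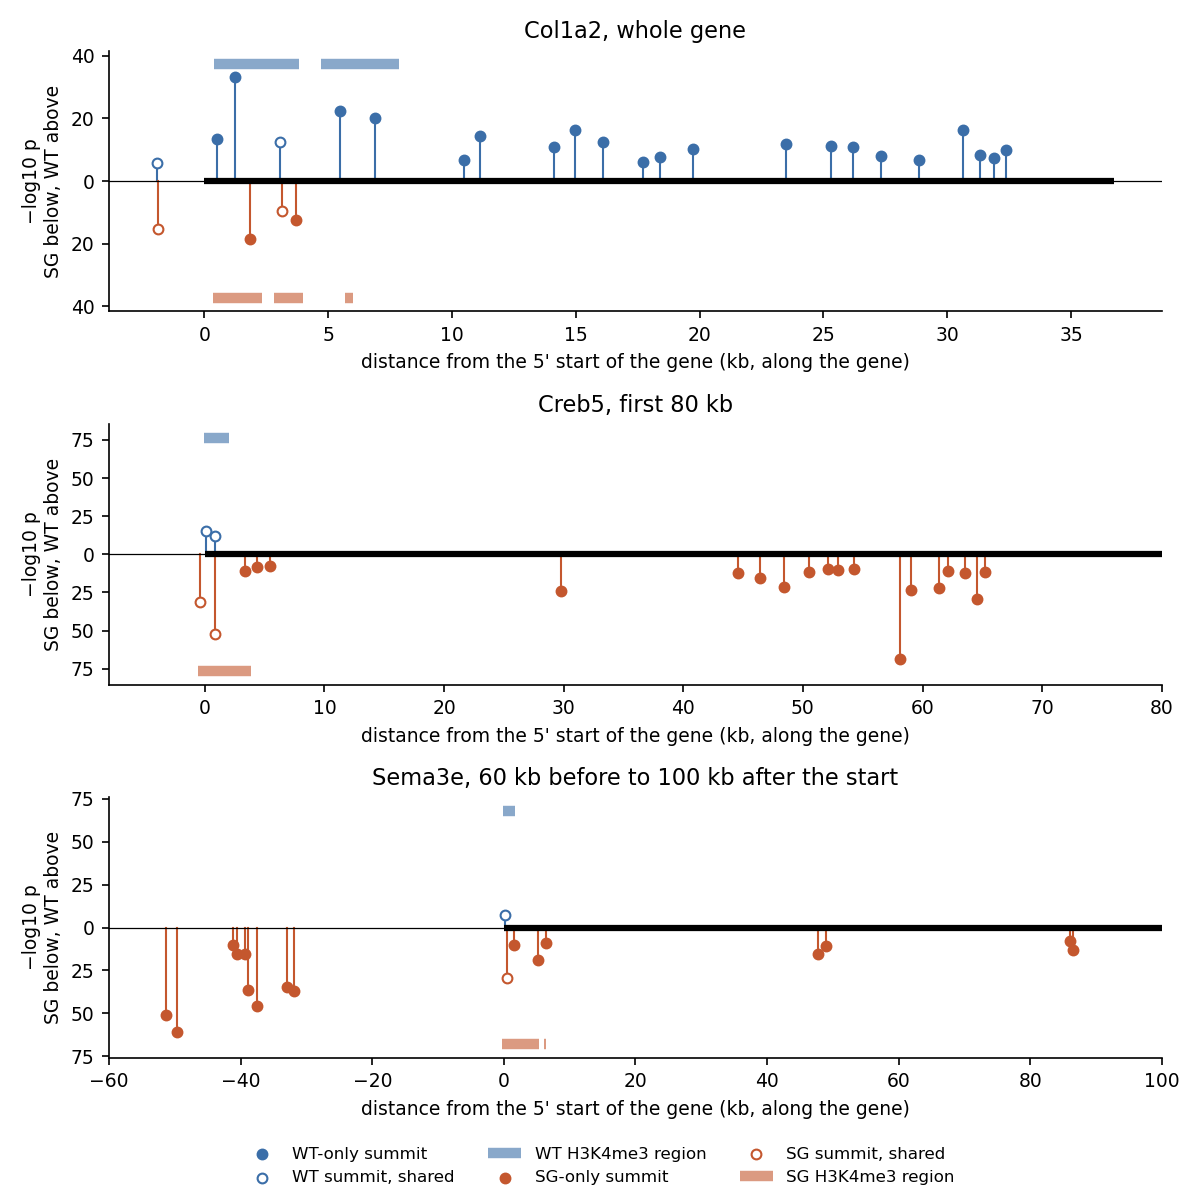
H3K27ac summits (stems; y axis, −log10 p, WT above and SG below 0) at Col1a2, Creb5 and Sema3e by distance from the gene's 5′ start (x axis, kb; black bar, gene). Filled points are unshared summits, open points shared ones, and the pale bars are H3K4me3 regions, whose height has no meaning. The WT-only summits run through the Col1a2 gene body to 32.4 kb, the Creb5 intron holds summits in SG and none in WT, and SG-only summits precede the Sema3e start.

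Each summit was then assigned to the nearest protein-coding TSS. Of 13362 genes with a summit, 424 (3.17%) had at least 3 more WT-only than SG-only summits and are called net-loss genes, and 1698 (12.7%) had at least 3 more SG-only, net-gain genes. With lists of equal length there were 726 and 755, and with a −log10 p of at least 10 in both lists 240 and 1281. Such a call needs several summits, so its frequency went with their number. With both lists counted together, 4.09% of genes with 5 to 9 summits were net-loss and 23.0% net-gain, 10.9% and 36.7% of those with 10 to 19, and 24.5% and 45.6% of those with 20 or more. The median over all genes was 3 summits, and it was 13 for the collagen list, 11 for the contractile, 10 for the matricellular and the growth factor, 8 for the TGF-beta and 4 for the HoxA and HoxC genes described below, against whose number of summits their counts of calls are to be read. Banp had the largest excess of WT-only summits, 37 of 55 WT summits against 5 of 24 SG summits, and 14 of the 37 were isolated. Col1a2 followed with 27 and 2, 2610203C20Rik with 33 and 14, Smad3, the signal carrier of TGF-beta, with 21 and 2, and G430095P16Rik with 19 and 1.

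These excesses did not all come with a weaker mark. Summed over the gene's summits, −log10 p was 508 in WT and 208 in SG for Col1a2 and 1083 and 625 for Banp, but 563 and 493 for Smad3. At Smad3 SG had fewer but stronger summits, with a highest −log10 p of 78.2 against 35.6. Since p-values grow with depth, the sums are no measure of signal between lists.

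On the other side, Myc had 50 SG-only of 86 SG summits against 18 WT-only of 53, and 25 of the 50 were isolated. Myc is a transcription factor that drives growth and division. Pla2g4a had 34 SG-only and 3 WT-only, Sema3a, a secreted semaphorin, 35 and 5, Gsdmc, a gasdermin, 29 and 1, and Utrn, the dystrophin relative utrophin, 29 and 5. Summed −log10 p was 111 in WT and 622 in SG for Pla2g4a and 167 and 857 for Sema3a. These 5 genes kept an excess of SG-only summits with lists of equal length, from 11 at Myc to 22 at Sema3a.

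H3K4me3 gave a view of the same genes that the classes had not used. The widest region over a TSS could be compared at 10760 genes, where the median log2 width ratio of SG over WT was 0.18. It was 0.11 over 341 net-loss genes and 0.24 over 1273 net-gain genes. The region was narrower in SG at 33.7% of net-loss genes (115, interval 28.9% to 38.9%), 16.4% of net-gain genes (209, 14.5% to 18.6%) and 22.5% of all. It was over 1.5 times narrower at 5.28%, 0.786% and 1.40%, and over 1.5 times wider at 11.4%, 17.8% and 11.4%. Among genes with at least 10 summits the narrower share was 37.4% of net-loss and 15.1% of net-gain genes. The fold over input went the other way, being lower in SG at 15.2% of net-loss genes, against 20.7% of net-gain and 21.8% of all genes.

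A single wide region in one list can stand against several neighbouring regions in the other, so the base pairs covered by each list were also counted over the joined span of touching WT and SG regions. The covered length was lower in SG at 33.4% of net-loss, 16.1% of net-gain and 22.4% of all genes, close to the shares by width. It was over 1.5 times lower at 2.64%, 0.786% and 0.976%, and over 1.5 times higher at 5.57%, 15.2% and 9.25%.

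Both narrower and lower in fold were 21 net-loss genes (6.16%, interval 4.06% to 9.23%), against 4.11% of all genes and 3.14% of net-gain genes. They included Cspg4, a proteoglycan of pericytes, with 1 region of 2930 bp in WT and 726 bp in SG, and Col6a1, with 2232 and 1965 bp. At Bgn, the proteoglycan biglycan, the covered length was 4522 and 2978 bp, and at Foxc2, a mesenchymal forkhead factor, 5255 and 4624 bp with folds of 8.47 and 4.93. Col1a2 was the gene of this set with the largest H3K27ac run. The genes of this paragraph other than Col1a2 were chosen after their values were seen.

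Among net-gain genes 69 (5.42%) had a region over 2 times as wide in SG, against 2.54% of all genes and 3.52% of net-loss genes. By covered length 48 (3.77%) did, against 1.42% and 0.587%, and 46 of the 69 were among them. Sema3e, with 1831 bp in WT and 5609 bp in SG, and Tgfbr3, the TGF-beta co-receptor betaglycan, with 2168 and 5326 bp, had 1 region in each list. Spp1, osteopontin, had 916 and 2146 bp covered, and Has2, the hyaluronan synthase, 3263 and 6641 bp. The collagen-modifying enzymes P4ha1 and Plod2 were over 2 times wider in SG by region but had 3488 and 6350 bp and 4072 and 5876 bp covered. Inhba, the activin A subunit, had 23 SG-only against 4 WT-only summits and regions of 2164 bp in WT and 6973 bp in SG, but a further WT region lay in the same span, and the covered length was 6506 and 6973 bp. These were also chosen after their values were seen, save Inhba, which the naming rule gave.

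**Figure D4:**
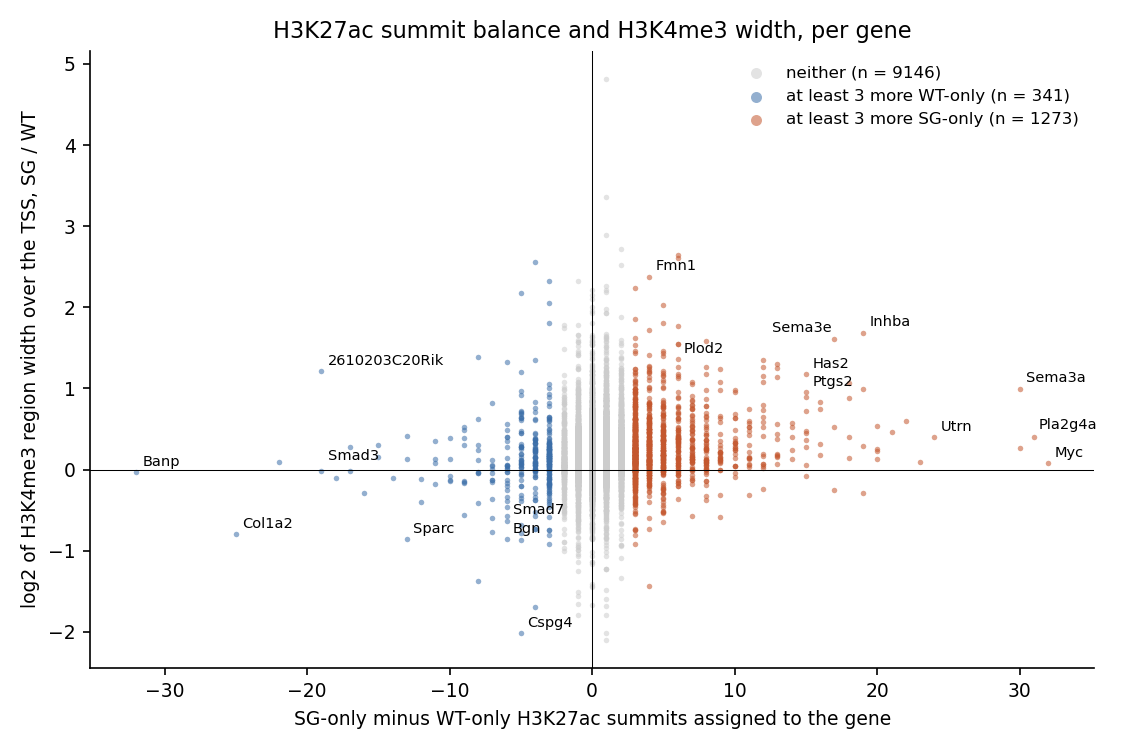
For each of 10760 genes, the number of SG-only minus WT-only H3K27ac summits (x axis) against the log2 ratio of H3K4me3 region width over the TSS, SG over WT (y axis). Net-loss genes (n = 341) lie to the left and net-gain genes (n = 1273) to the right, with Col1a2 at −25 and −0.80 and Inhba high on the right at 1.69; by covered length in place of width the log2 ratios are −0.13 and 0.10.

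The matrix genes did not lie on 1 side. Of 232 WT summits at 25 fibrillar and associated collagens and their enzymes, 129 were WT-only (55.6%, against 32.3% of all WT summits), and of 197 SG summits 101 were SG-only (51.3%, against 48.4%). Col1a2 alone held 27 of the 129 WT-only summits. There were 11 net-loss and 8 net-gain genes among the 25, at a median of 13 summits. Of all genes with 10 to 19 summits 10.9% were net-loss and 36.7% net-gain, so the net-gain count lay near that share. Net loss was seen at Col1a1 (12 WT-only of 21, 4 SG-only of 10), Col1a2, Col4a2 (17 of 33, 1 of 15), Col4a1, Col6a1, Col6a2, Col6a3, Col14a1, Col16a1, Lox and Serpinh1. H3K4me3 at Col1a1 covered 9927 bp in WT and 9779 bp in SG, the latter in 2 regions, with folds of 5.57 and 6.94 for the widest.

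Net gain was seen at Col3a1 (1 WT-only of 5, 7 SG-only of 10), Col5a2 (5 of 7, 11 of 13), Col8a1 (2 of 4, 10 of 12), Col11a1 (0 of 1, 11 of 12), Col18a1, Loxl1, Plod2 and P4ha1. Col5a1 had the most SG-only summits of the list, 18 of 29, and 19 WT-only of 30. The chains of type I, IV and VI collagen thus stood on one side and Col3a1, Col5a2 and Col11a1 on the other.

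Among 28 matricellular and other matrix genes with summits 8 were net-loss and 9 net-gain, and 118 of 252 WT summits were WT-only (46.8%) and 127 of 261 SG summits SG-only (48.7%, near the 48.4% of all SG summits). Of all genes with 10 to 19 summits 10.9% were net-loss and 36.7% net-gain. Thbs1, thrombospondin, had the most WT-only summits, 23 of 55, with 14 SG-only of 44, and Ltbp1, a latent TGF-beta binder, the most SG-only, 19 of 30, with 9 WT-only of 21. Sparc, a collagen-binding glycoprotein, had 13 WT-only of 18 summits, 6 of them isolated, and 5 SG summits, all shared, and H3K4me3 at its start covered 9265 bp in WT and 5480 bp in SG. Has2, for comparison, had 1 WT-only of 8 and 16 SG-only of 23 summits, and Tnc, tenascin C, 2 of 4 and 9 of 11.

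The contractile genes of myofibroblasts were marked in both genotypes. Of 27 genes 25 had summits, with 120 of 249 WT summits WT-only (48.2%) and 106 of 234 SG summits SG-only (45.3%). Over all summits these shares were 32.3% and 48.4%. Of the 25 genes 5 were net-loss and 6 net-gain. Their median was 11 summits, and of all genes with 10 to 19 summits 10.9% were net-loss and 36.7% net-gain. Cald1 had the most WT-only summits, 22 of 37, and also the most SG-only, 17 of 32. Acta2, the smooth muscle actin used to define myofibroblasts, had 3 WT summits, 2 of them WT-only, and 2 SG summits, 1 of them SG-only, with summed −log10 p of 71.3 and 43.9. Myh9, nonmuscle myosin, had 20 WT-only of 33 and 9 SG-only of 22, and Flna, filamin, 2 of 4 and 9 of 11.

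TGF-beta genes, the main inducers of myofibroblasts, held 278 WT summits, 101 WT-only (36.3%), and 293 SG summits, 120 SG-only (41.0%), so that the first share was a little above and the second below that of all summits. Of 30 genes 6 were net-loss and 8 net-gain, at a median of 8 summits. Of all genes with 5 to 9 summits 4.09% were net-loss and 23.0% net-gain, so the net-gain count lay near that share. On the ligand and receptor side, net gain was seen at Tgfb2 (4 WT-only, 9 SG-only), Tgfbr2 (4 and 9), Tgfbr3 (8 and 21), Inhba (4 and 23), Bmp4 (0 and 4), Bmpr1a (0 and 3) and the decoy receptor Bambi (0 and 3), and net loss at the co-receptor Eng (4 and 0) and the protease Bmp1 (4 and 1). Among the Smads and nuclear repressors, net loss was seen at Smad3 (21 and 2), Smad7, an inhibitory Smad (12 and 6), Ski (8 and 3) and Tgif1 (17 and 8), and net gain at Smad2 (0 and 3). H3K4me3 at Smad7 covered 13998 bp in WT and 13169 bp in SG, in 1 and 2 regions.

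Inflammatory genes had more unshared summits than the whole of either list. Of 28 cytokines, chemokines and their regulators 24 had summits, with 0 net-loss and 8 net-gain genes and a median of 6.5 summits, and of all genes with 5 to 9 summits 4.09% were net-loss and 23.0% net-gain. SG-only were 108 of 167 SG summits (64.7%, interval 57.2% to 71.5%, against 48.4% of all), and WT-only 44 of 105 (41.9%, against 32.3%). Tnfaip3, the inhibitor of NF-kB signalling also called A20, had 22 SG-only of 29 summits and 3 WT-only of 10, and H3K4me3 covered 5316 bp in WT and 8067 bp in SG. Ptgs2, the inducible prostaglandin synthase COX-2, had 18 of 22 and 3 of 7, with 5248 and 8971 bp covered. Csf1, a macrophage growth factor, had the most WT-only summits, 10 of 20, and 10 SG-only of 19. Of the immune cell markers Cd68, Csf1r and Itgam had 6 SG summits in all and 0 WT summits, the other 7 markers in the annotation had none, and Spi1 was not found there by that name. Whether immune cells had a part in this was not tested.

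Of the Hox clusters, which keep the positional identity of skin fibroblasts, HoxA, HoxB and HoxC held more WT than SG summits, and HoxD held 5 WT and 8 SG summits. Over all summits 32.3% of WT were WT-only and 48.4% of SG were SG-only, and the intervals of the 3 SG-only shares below include the latter. HoxC genes held 27 WT summits, 18 of them WT-only (66.7%), and 13 SG summits, 5 of them SG-only (38.5%). Of 9 HoxC genes 2 were net-loss and 0 net-gain, and over all genes 3.17% were net-loss and 12.7% net-gain. HoxB genes held 41 WT (24 WT-only) and 25 SG summits (8 SG-only, 32.0%). Of 9 HoxB genes, at a median of 9 summits, 3 were net-loss and 0 net-gain, against 4.09% and 23.0% of all genes with 5 to 9. HoxA genes stood on both sides, with 30 WT (19 WT-only) and 24 SG summits (13 SG-only, 54.2%) and 2 net-loss and 2 net-gain genes. Hoxc8 had 4 WT summits, all isolated, and 0 SG summits. Hoxc10 had 6 WT summits with a highest −log10 p of 71.7, 4 of them isolated, and 1 SG summit at 13.2. A further SG summit, at 94.4 stronger than any of these WT summits, lay 10.5 kb past the start and 5.91 kb from the last of them, so that the locus was marked in SG as well.

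H3K4me3 over these clusters covered no less in SG, save at 1 of 7 HoxC genes, the others being 9 HoxA and 3 HoxB genes with a region in both lists. In SG 1 region often stood where WT had several. At Hoxc8 4 WT regions covered 20675 bp and 1 SG region 23081 bp, at Hoxa3 and Hoxa6 4 WT regions covered 29097 bp and 1 SG region 32735 bp, and at Hoxc10 27367 and 28555 bp were covered. Hoxb5 had 7 WT-only of 8 summits and 1 SG summit, and an SG H3K4me3 region of 26036 bp stood against 9 WT regions of 13757 bp in all, none of them over a start of the gene. For H3K27ac, fewer peaks and merged peaks cannot be told apart here without widths.

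Other lists were as follows. Among the 8 candidate master factors named by the study, Fosl2 and Nfix were net-loss genes (10 and 12 WT-only against 6 and 3 SG-only). Klf4, Tead1, Cebpb and Klf13 were net-gain genes, with 16, 19, 12 and 7 SG-only summits against 8, 8, 8 and 3 WT-only. The 8 factors had a median of 24.5 summits, and of all genes with 20 or more 24.5% were net-loss and 45.6% net-gain, so these counts lay near those shares. AP-1 genes held 27 WT-only of 59 (45.8%, against 32.3% of all WT summits) and 25 SG-only of 58 summits (43.1%, against 48.4% of all SG summits). Of the Tead and Yap pathway 6 of 12 genes were net-gain and 2 net-loss at a median of 13.5 summits, against 36.7% and 10.9% of all genes with 10 to 19, with Amotl2 the highest in WT-only (11) and Tead1 in SG-only summits (19). Wnt genes held 32 WT-only of 74 (43.2%) and 68 SG-only of 109 (62.4%), both above the shares of all summits, led in SG-only by Tcf7l2 with 12, and Wnt7b had the most WT-only, 6.

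Growth factor ligands and receptors had shares near those of all summits, 34.1% WT-only and 49.1% SG-only. Of 30 genes 10 were net-gain and 2 net-loss at a median of 10 summits, near the 36.7% and 10.9% of all genes with 10 to 19. Pdgfc and Igf1r had 10 SG-only summits each, and Igf1r had 9 WT-only. Pdgfrb, which marks fibroblasts and pericytes, had 8 WT-only of 11 summits, 6 of them isolated, and 1 SG-only of 4, while H3K4me3 covered 4191 bp in WT and 3943 bp in SG. Runx1 and Runx2, of the skeletal lineage list, led it in WT-only (10) and SG-only summits (13). Cebpb led the adipogenic list on both sides (8 and 12), and Timp3 led the metalloproteinases and inhibitors in SG-only summits (12). Among Prrx-family and mesenchymal factors Tcf4 had the most of both, 10 WT-only and 23 SG-only, and Prrx2, the paralogue of Prrx1, had 4 WT-only of 5 summits, all 4 isolated, and 1 SG summit.

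Of the markers of other cells, keratinocyte genes held 41 SG-only of 59 summits, 29 of them nearest to Trp63, a regulator of basal keratinocytes, and Krt5, Krt14 and Krt1 were at 0 in both lists. Trp63 had no H3K4me3 region over a TSS in either list. Endothelial genes held 19 SG-only of 38 (50%; Kdr 7) and 8 WT-only of 27 (29.6%; Cdh5 and Kdr 4 each), Schwann and melanocyte genes 6 of 11 (Mitf 3) and 2 of 8, and muscle genes 1 of 8 and 1 of 7. HoxD genes held 4 SG-only of 8 and 1 WT-only of 5. The cell cycle list held 116 SG-only of 231 (50.2%), 50 of them at Myc, and 72 WT-only of 188 (38.3%). Over all summits 48.4% were SG-only and 32.3% WT-only, so the endothelial and cell cycle shares of SG-only summits were near those of the whole list.

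**Figure D5:**
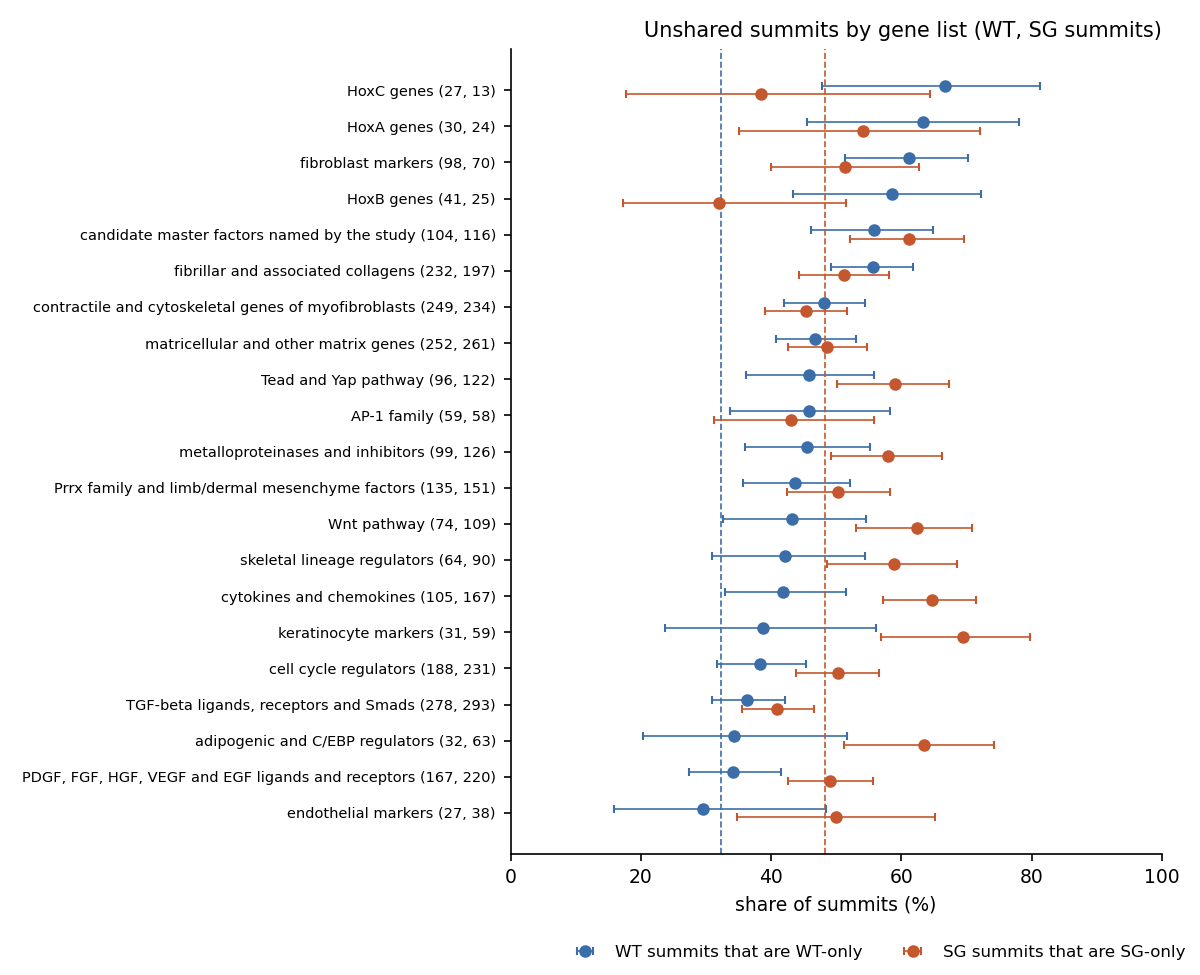
Share of summits that were WT-only (of WT summits) or SG-only (of SG summits) for gene lists with at least 20 WT summits (x axis, percent, with 95% Wilson intervals; numbers of WT and SG summits in brackets). Dashed lines are the shares over all summits, 32.3% and 48.4%. HoxC, HoxA and fibroblast marker genes lie highest for WT-only, and keratinocyte and cytokine genes for SG-only summits. Col1a2 alone holds 27 of the 60 WT-only summits of the fibroblast markers.

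The strongest unshared summits had a strong summit of the other list close by. The 5 strongest WT-only summits, near Actb, Brd2, Atf4, Atp5g2 and Nanos3, had −log10 p between 84.3 and 102, and an SG summit of 87.7 to 125 lay 594 to 1852 bp away. Of the 5 strongest SG-only summits, those near Tnrc18, Thoc6, Nfya and Tgif1 had values of 123 to 150, and a WT summit of 51.6 to 70.3 lay 659 to 2328 bp away. Of isolated summits, the strongest in WT were 2 at Hoxc10 (71.7 and 64.8) and in SG 1 in an intron of Nfix (77.7), which had a WT-only summit of 78.6 at 7.29 kb. The isolated summits named here were chosen after their values were seen.

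Super-enhancers were approximated as clusters of summits within the same stitching distance, ranked by summed −log10 p. Of 777 WT super-enhancers 634 (81.6%) overlapped one of the 1390 SG super-enhancers, and 633 of these 1390 (45.5%) overlapped a WT one. Ranks come from lists of different length, and a cluster with no overlap takes the last rank, so a difference in rank is a description of the listing. At Rnf4, Atf1 and Cstad, which the naming rule gave, this difference from WT to SG was largest. At Rnf4 and Atf1 no SG cluster overlapped the WT cluster, but an SG summit of −log10 p 114 and 91.5 lay 96 and 6 bp outside its edge. At Cstad 7 WT summits with a sum of 136 stood against 2 SG clusters, the stronger with 2 summits and a sum of 36.2. The Col1a2 cluster, with 26 summits, stood at rank 58 of 13901 in WT. It overlapped 2 SG clusters, the stronger at rank 6165 of 18052 with 2 summits and a sum of 60.7. The span of the WT cluster held 6 SG summits in all.

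In the other direction Sema3e, Creb5 and Spock3 had SG super-enhancers at ranks 192, 274 and 458, with 9, 14 and 9 summits and no overlapping WT cluster. The nearest WT summit lay 32.0, 43.7 and 856 kb away. The Sema3e cluster spanned 19.5 kb upstream of this semaphorin gene (chromosome 5, 13973918 to 13993424), reached a −log10 p of 60.7, and 4 of its summits were in MEF WT. None of the 9 summits of Spock3, a matrix proteoglycan gene, was in a MEF or MMTV-CAF list.

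In sequence, the distal summits of the 2 classes differed in base composition. Windows of 201 bp around distal WT-only summits had 51.2% GC and 3.14 CpG each, those around distal SG-only summits 46.5% and 2.23, and those of distal shared WT summits 51.6% and 3.70. The surroundings differed the same way. Windows 2 kb to either side had 47.5% GC for WT-only and 44.5% for SG-only summits. In gain runs the distal windows had 45.5% GC and in loss runs 51.4%.

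Words of known factors were searched on both strands. TAATT was in 16.4% of distal WT-only and 25.4% of distal SG-only windows, and in 25.1% and 31.6% of the windows 2 kb away, so it was rarer at the summits than beside them in both classes. TAATTA, which contains it, was in 2.73% and 4.203%. TGANTCA was in 5.03% and 5.86%, GGAATG, the word of Tead factors, in 11.6% and 10.8%, and CACCTG, an E-box of Snail and Zeb factors, in 16.1% and 12.48%. Of 45970 windows at protein-coding TSSs, 11.95% held TAATT and 1.89% TAATTA. AT-rich words follow base composition, and the part of composition in these shares was not tested.

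Prrx1 binding was also counted per gene. A Prrx1-bound WT summit was present at 40.6% of net-loss, 16.3% of net-gain and 11.97% of all genes, but net-loss genes had a median of 9 WT summits, net-gain genes 2 and all genes 1. Among genes with 10 or more WT summits the shares were 53.6% (interval 46.6% to 60.5%), 54.3% (46.0% to 62.4%) and, for genes in neither class, 50.0% (42.8% to 57.2%). With 5 to 9 WT summits they were 30.4%, 30.7% and 27.6%, and with 3 or 4 they were 25.6% of 39 genes (14.6% to 41.1%), 16.98% and 16.96%. The summits themselves were Prrx1-bound at 5.89%, 6.11% and 5.88% in genes with 10 or more. In loss runs 5.28% of summits were bound, against 5.16% of WT-only summits outside runs.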

How the data were processed

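The wound-healing libraries were analysed as peak lists: H3K27ac in WT and SG, H3K4me3 in WT and SG, and Prrx1 in WT, with the MEF and MMTV-CAF H3K27ac lists for comparison. Per the labels and the study's methods, the authors cleaned the reads with Trimmomatic, mapped them with Bowtie (mm9), removed duplicates and ran MACS2 on each library, with the input of that genotype as control. Whether the Prrx1 list pools its duplicate ChIPs was not given in the sources used here. The deposited H3K27ac and Prrx1 files hold 1-bp summits with the authors' −log10 p, of 5 or more for H3K27ac, and the deposited H3K4me3 files hold regions with a fold over input (a ratio). No file gives read totals, so the depth is unknown and no interval covers it.

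From these, distances between summits, classes, runs, clusters, nearest protein-coding TSSs (GENCODE vM1, 46006 starts, assembly NCBIM37, the same build as mm9) and sequence windows were computed with Python 3.11.15, numpy 2.4.6, pandas 2.3.3 and pysam 0.24.0, and drawn with matplotlib 3.10.9. The functions were tested on simulated data with known classes. With 1 library per group no test was made and no p-value is given. The members and gene lists were chosen with earlier results of these data known. The genes named were Prrx1, the 8 longest loss and gain runs, the 5 strongest unshared summits and the 6 genes with the largest excess on each side, the 3 super-enhancers with the largest fall in rank each way, and the genes of each list with the most WT-only and SG-only summits; other genes were named after their values were seen. Some genes that this rule gives are not reported here. The limits for isolated summits (5 kb) and for net-loss and net-gain genes (3 summits), the counts with H3K4me3-bridged summits as shared and the covered length of H3K4me3, were also chosen after seeing the data. Alternatives were the sharing distance, a stricter −log10 p, lists of equal length, other TSS sets and promoter distances, and the largest gap in a run.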

Additional observations from a re-analysis of the deposited data

Results flagged for a closer look

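The balance of isolated summits differed in direction between cell types, which was not tested, since each group had 1 library. The log2 ratio of isolated summits of the other genotype over isolated WT summits was 2.98 in wound-healing SG, −0.30 in MEF SG, −2.38 in MEF KI, labelled KI_PRRX1, and 0.54 in MMTV-CAF SG. MMTV-CAF SG thus had the direction of wound-healing SG, and the 2 MEF contrasts, which share their WT list, the opposite one. The log2 ratio of list lengths, the other genotype over WT, was 0.36, −0.06, −0.62 and 0.19 in the same order, and its part in these values was not tested.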

How the results depend on the processing

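Each group had 1 library, so no replicate could be left out, and depth, which is unknown, limits what either list could hold. No paired analysis was possible because each group has 1 library and no result comes from a test. The share of WT-only summits was 42.8% with sharing within 250 bp, 16.1% within 1 kb, 29.1% with a −log10 p of at least 10, 36.5% with lists of equal length, 3.86% with sharing within 5 kb and 19.1% with H3K4me3-bridged summits as shared, the last 2 settings being chosen after seeing the data. The share of SG-only summits was 55.5%, 38.1%, 47.8%, 38.3%, 23.7% and 42.3% in the same order. SG-only exceeded WT-only shares under all 6, by little with equal length. For the first 5 settings, the promoter share was 30.2%, 15.1%, 32.8%, 24.9% and 12.2% of WT-only and 16.7%, 7.98%, 16.3%, 15.7% and 8.38% of SG-only summits. With the TSSs of all annotated genes it was 30.8% and 16.6%, and with a promoter distance of 2 kb 36.6% and 19.8%. H3K4me3 covered 44.5%, 33.6%, 49.2%, 39.6% and 16.7% of WT-only and 29.4%, 20.4%, 29.8%, 28.9% and 14.02% of SG-only summits. Prrx1-bound were 4.15% (1 kb), 6.40% (at least 10) and 4.34% (5 kb) of WT-only summits, and 3.20%, 2.15%, 3.65%, 3.48% and 2.42% of SG-only summits over the 5 settings. Loss runs numbered 300 (1 kb), 230 (at least 10), 61 (5 kb) and 289 (bridged as shared), and gain runs 922 (at least 10), 576 (equal length) and 754 (5 kb). Gain runs outnumbered loss runs except with lists of equal length, where loss runs numbered 645. Net-loss and net-gain genes numbered 726 and 755 with equal length, 240 and 1281 with a −log10 p of at least 10, and 251 and 1722 with bridged summits as shared. By covered H3K4me3 length in place of region width, also chosen after seeing the data, the share of genes over 2 times higher in SG was 3.77% of net-gain (5.42% by width) and 0.587% of net-loss genes (3.52%). The cause of these movements was not tested.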
